A study of Mus musculus with 13 samples.

Results

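The genes of oxidative phosphorylation encode the subunits of 5 protein complexes of the inner mitochondrial membrane. They were chosen by name: the Nduf and mt-Nd subunits of complex I, the Sdh subunits of complex II, the Uqcr subunits and mt-Cytb of complex III, the Cox and mt-Co subunits of complex IV, and the Atp5 and mt-Atp subunits of complex V. Of the 55421 genes in the deposited tables, 110 symbols matched. Of these, 8 pseudogenes with -ps in the symbol were left out, and 7 further symbols did not reach 10 reads in 2 libraries (Cox8b, Cox8c, Cox7b2, Ndufa4l2, Ndufa11b, mt-Atp8 and a duplicate entry of Atp5o without reads). The remaining 95 genes were 83 encoded in the nucleus and 12 encoded in mitochondrial DNA. Among the 83 are Ndufb4c, Ndufs6b and Cox6c2, which the annotation lists as processed pseudogenes. The nuclear genes comprised 38 of complex I, 4 of complex II, 8 of complex III, 16 of complex IV and 17 of complex V. The mitochondrially encoded (mt-encoded) genes comprised 7 of complex I, 1 of complex III, 3 of complex IV and 1 of complex V.

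The series addresses how the histone methyltransferase Setd2 acts on the mutated splicing factor Srsf2 in myelodysplastic syndrome, a disease of blood stem cells. RNA-seq of bulk hematopoietic stem and progenitor cells (HSPCs) from mouse bone marrow gave 10 libraries, of which 2 were wild type, 2 Setd2 knockout, 3 Srsf2 mutated and 3 carried both alterations, a group called double mutant here. The labels give alleles only for the 3 single-cell samples, which were not analysed here: Setd2 fl/fl, a floxed allele, and Srsf2 P95H/+, a heterozygous missense allele, with Mx1-Cre in each group, in mice 4 weeks after pIpC (which switches Mx1-Cre on) in a bone marrow transplant model. For the bulk libraries the alleles, the sort, any transplant, the age and the sex of the mice are not given in the sources used here. Mx1-Cre is active in blood cells and in other interferon-responsive tissues. Nothing in the labels says whether the libraries of a group came from separate mice, so p-values measure only the spread between these libraries.

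Complexes I to IV pass electrons from NADH and succinate to oxygen and pump protons out of the mitochondrial matrix, and complex V uses the returning protons to make ATP. Most subunits are encoded by nuclear genes, translated in the cytosol and imported, while a small core of membrane subunits is encoded by mitochondrial DNA and is transcribed as long precursors from both strands. Blood stem cells are known to rely less on oxidative phosphorylation than their dividing progeny.

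Total counts ran from 32117387 to 50445434 per library. The HSPC markers, 15 genes such as Kit and Cd34, were all detected in each group, with a summed level of 1757 to 1935 CPM (counts scaled to a common library size) in the wild type libraries, 1859 to 1905 with Setd2 knockout, 1255 to 1286 with mutated Srsf2 and 941 to 957 with both. Markers of other cell types and of handling stress moved with the groups. Summed erythroid markers (20 genes) were at 943 to 1020 CPM in the wild type libraries, 2817 to 2839 with Setd2 knockout, 6637 to 8364 with mutated Srsf2 and 23530 to 25050 with both. Summed early neutrophil markers (10 genes) were at 27380 to 27840, 14810 to 15990, 9521 to 11180 and 7633 to 7797 CPM in that order, and late neutrophil markers (12 genes) at 17930 to 24860, 6576 to 7157, 15440 to 19060 and 35830 to 36630. Summed B lymphoid markers (12 genes) were at 129 to 148, 108 to 109, 1167 to 1237 and 326 to 340.0 CPM in the same order, and immediate early and heat shock genes (13 genes, signs of handling stress) at 2277 to 3748, 2791 to 2884, 8916 to 9233 and 7436 to 7494, so that both were higher in each library with mutated Srsf2 than in each without. Over the 10 libraries, eosinophil markers ran from 179 to 1948 CPM, mast cell and basophil markers from 316 to 1265, T and NK markers from 169 to 421, megakaryocyte markers from 90.4 to 215 and monocyte and macrophage markers from 293 to 556. Only Cd3g (wild type), Mcpt4 and Gp6 (Setd2 knockout) and Gp1bb (the other 3 groups) of all these markers were at 0 in every library of a group, and the part of these cell types and of stress in the results was not tested. In bulk RNA, fewer cells of a type and less RNA per cell cannot be told apart. Xist, the RNA of the inactive X chromosome, was at 486 ± 19.7 CPM (wild type), 0.598 ± 0.0517 (Setd2 knockout), 1.78 ± 0.655 (Srsf2 mutated) and 7.41 ± 0.565 (double mutant), and the Y-linked Ddx3y was at 0 CPM in both groups without mutated Srsf2, 111 ± 7.91 in Srsf2 mutated and 124 ± 4.39 in double mutant. In both comparisons with wild type, in double mutant against Setd2 knockout and in the interaction of the alterations, genotype and a difference in sex therefore cannot be told apart for any member. Setd2 was at 158 and 145 CPM (wild type), 231 and 213 (Setd2 knockout), 213, 221 and 157 (Srsf2 mutated), and 131, 129.6 and 130.2 (double mutant). Counts over the whole gene were thus above wild type in both libraries labelled Setd2 knockout alone, and below it in each double mutant library. Since a transcript lacking only the deleted part still gives counts, whole-gene counts do not check these labels. Directions given for Setd2 knockout are those of the libraries labelled so.

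Several members share sequence with other genes, which limits what a read can be assigned to. For each gene's main transcript, the share of its 50-base stretches that also stand in a transcript of another gene was counted. It was 100% for mt-Co2, 99.9% for mt-Co3, 99.5% for mt-Atp6, 98.8% for mt-Nd4l, 98.0% for mt-Nd3, 62.2% for mt-Nd4 and 51.1% for mt-Co1. It was 8.2% for mt-Nd2, 7.6% for mt-Nd5 and 0 for mt-Nd1, mt-Nd6 and mt-Cytb. Among the 83 nuclear genes the median was 3.3%, 33 had no shared stretch and 6 had over 50%. The start of mt-Co2, which encodes the copper-bearing subunit that takes electrons from cytochrome c, shows why its reads are uncertain. Capitals mark bases that differ from mt-Co2 in the first 80 bases of the gene (chrM:7013-7092, plus strand), of a copy on chromosome 1 (chr1:24615486-24615565, minus strand) and of a copy on chromosome 2 (chr2:22587883-22587962, minus strand), all on GRCm38.
mt-Co2: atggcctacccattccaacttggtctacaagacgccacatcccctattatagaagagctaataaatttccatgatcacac
Gm28661: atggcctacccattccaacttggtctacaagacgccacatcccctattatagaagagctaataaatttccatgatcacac
Gm13341: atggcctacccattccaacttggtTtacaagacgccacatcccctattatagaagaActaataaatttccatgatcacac
The copy Gm28661 had 0 differences from mt-Co2 over the 681 bases compared, and Gm13341 had 2 in the bases shown.

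The complex V gene Atp5l, encoding subunit g of the membrane part, and the complex I gene Ndufs6, encoding a zinc-binding accessory subunit, have copies elsewhere in the nuclear genome. Their first 80 coding bases are shown because these pairs carry some of the largest differences between genotypes. Capitals mark differences from the gene named first. Atp5l lies at chr9:44912557-44920742 and Gm10221 at chr5:24581554-24581862. Ndufs6 lies at chr13:73319838-73328542 and Ndufs6b, a processed pseudogene kept as a member by its name, at chr7:81161397-81161744 (gene coordinates, GRCm38, all on the minus strand).
Atp5l: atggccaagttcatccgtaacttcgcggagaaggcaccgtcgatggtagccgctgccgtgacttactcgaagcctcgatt
Gm10221: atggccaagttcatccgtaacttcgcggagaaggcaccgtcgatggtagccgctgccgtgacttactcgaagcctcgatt
Ndufs6: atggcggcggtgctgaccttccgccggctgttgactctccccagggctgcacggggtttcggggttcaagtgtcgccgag
Ndufs6b: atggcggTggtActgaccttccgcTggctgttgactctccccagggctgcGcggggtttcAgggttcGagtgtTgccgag
Atp5l and Gm10221 did not differ in these bases, and Ndufs6b had 7 differences from Ndufs6.

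The level of each gene per length was read from the deposited FPKM (reads per length of the gene and total of the library), as a mean over the 10 libraries. The 7 highest members were mt-encoded, down to mt-Nd6 at 389, and the 5 mt-encoded genes with over 90% of their stretches shared were far lower, from 1.14 for mt-Nd4l to 45.5 for mt-Co2. The catalytic subunit mt-Co1 stood at 4225 FPKM, mt-Cytb, the heme-bearing core of complex III, at 1957, and the membrane subunits of complex I mt-Nd1 and mt-Nd2 at 1705 and 864. Among the nuclear genes, the head subunits of ATP synthase Atp5a1 and Atp5b stood at 338 and 287 FPKM, and the complex IV subunits Cox6a1 and Cox8a at 334 and 311. Complex I was led by Ndufa4, a gene with a complex I name whose protein is now assigned to complex IV, at 99.5 FPKM and by the X-linked Ndufb11 at 93.4. Complex II was led by the membrane anchor Sdhd at 122 and the flavoprotein Sdha at 72.2, and complex III by the small subunit Uqcr10 at 120.4 and the Rieske iron-sulfur protein Uqcrfs1 at 107. Among the lowest nuclear genes were Ndufb2 at 0.48, Cox6c2 at 0.767, Ndufb4c at 1.72, Atp5o at 2.23, and the tissue-restricted complex IV forms Cox4i2 at 1.20, Cox7a1 at 1.60 and Cox6a2 at 1.67 FPKM.

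Together the nuclear members took 0.999% and 1.04% of all counts (wild type), 0.878% and 0.942% (Setd2 knockout), 0.968%, 0.910% and 1.07% (Srsf2 mutated), and 0.819%, 0.826% and 0.831% (double mutant). The mt-encoded members took 1.24% and 0.942% (wild type), 1.81% and 1.58% (Setd2 knockout), 1.51%, 1.27% and 1.43% (Srsf2 mutated), and 1.37%, 1.30% and 1.31% (double mutant). The nuclear share of Srsf2 mutated replicate 3 was above those of wild type and all others were below them, while the mt-encoded share was lower in each wild type library than in each library of the other groups. The ratio of mt-encoded to nuclear member counts does not depend on how libraries are scaled. It was 1.24 and 0.904 (wild type), 2.07 and 1.67 (Setd2 knockout), 1.56, 1.39 and 1.34 (Srsf2 mutated), and 1.67, 1.58 and 1.58 (double mutant). The ratio was lower in each wild type library than in each library of the 3 other groups, and highest in Setd2 knockout replicate 1. Of the nuclear share, complex V held the most, with 0.460% ± 0.0043 (SD) of wild type counts, and 0.409% ± 0.016 with Setd2 knockout, 0.434% ± 0.027 with mutated Srsf2 and 0.350% ± 0.0022 with both.

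**Figure D1:**
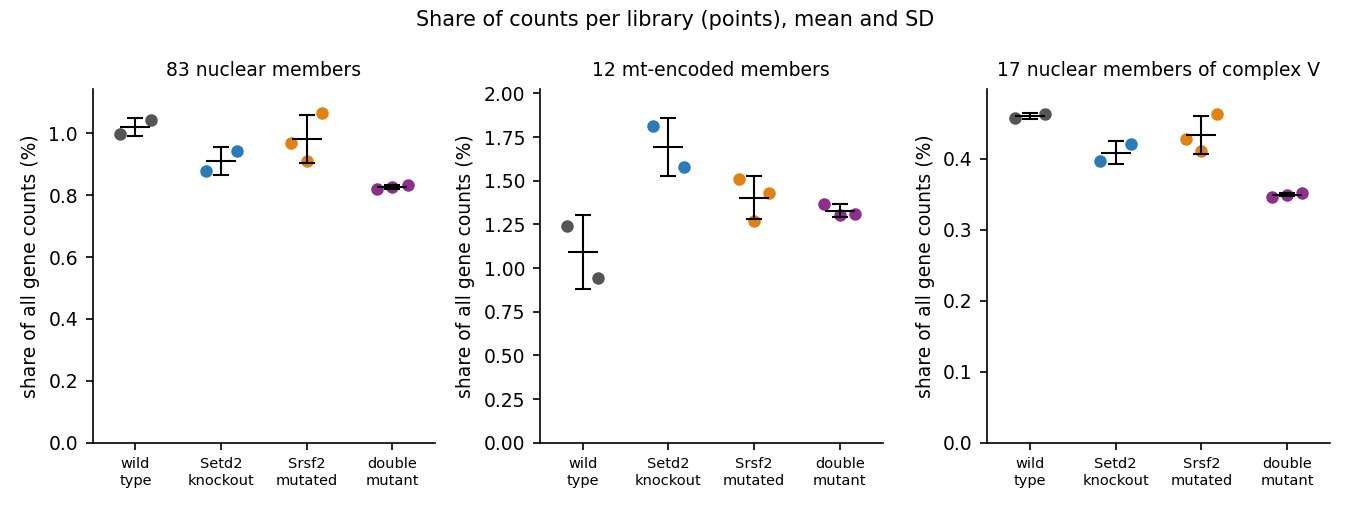
Share of each library's counts (percent, y axis) taken by the 83 nuclear members, the 12 mt-encoded members and the 17 nuclear members of complex V, with 1 point per library by group (x axis) and the group mean and SD as bars. The double mutant libraries had the lowest nuclear shares (0.819% to 0.831%), and the Setd2 knockout libraries the highest mt-encoded shares (1.58% and 1.81%).

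Differences were tested in each gene with edgeR's quasi-likelihood test on the counts of all 10 libraries, after scaling the libraries by TMM factors (which centre the bulk of genes on no change). P-values were adjusted by the Benjamini-Hochberg method over the 19289 genes tested, and a gene was called at an adjusted p under 0.05. All 95 members were among the genes tested. The scaling matters here, because the factors differed between groups: 0.941 and 0.935 for wild type, 1.09 for both Setd2 knockout libraries, 1.01 to 1.05 for Srsf2 mutated and 0.956 to 0.962 for double mutant. With library totals alone (an alternative added after the factors were seen) the median log2 fold change of all genes against wild type moved from 0.04 to 0.26 in Setd2 knockout and from 0.08 to 0.21 in Srsf2 mutated. That of double mutant moved from 0.00 to -0.10 against Srsf2 mutated and from 0.01 to -0.18 against Setd2 knockout. The place of the nuclear members relative to the median of all genes is therefore given beside their counts. A change of scaling moves all genes by nearly the same amount. This place therefore stays nearly fixed by construction and is no check on the scaling.

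The libraries labelled Setd2 knockout had lower levels of most nuclear subunits than wild type, in all 5 complexes, and higher levels of several mt-encoded ones. Of 83 nuclear members, 56 were lower and 2 higher, where 38.6% of all tested genes were called, 19.9% lower and 18.7% higher. The median log2 fold change was -0.40 over the nuclear members and 0.04 over all genes, and 78 of the 83 lay below the median of all genes. By complex, 25 of 38 genes were lower in complex I, 4 of 4 in II, 5 of 8 in III, 11 of 16 in IV and 11 of 17 in V, with medians from -0.26 in complex II to -0.41 in complexes IV and V. In 68 nuclear genes both Setd2 knockout libraries lay below both wild type libraries, and in 3 above, against 34.6% and 38.5% of all genes.

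Uqcrc1, a core protein of complex III, was at 493 and 484 CPM (wild type), 322 and 331 (Setd2 knockout), 276, 276 and 329 (Srsf2 mutated), and 233, 229 and 232 (double mutant). The wild type libraries stood above all others, and the double mutant libraries below all others. It fell by 0.58 on the log2 scale in Setd2 knockout (SE 0.0852, edgeR adjusted p = 6.44e-05). The gene lies at chr9:108936633-108949623, 1.60 Mb from Setd2 on the same chromosome, and whether that position bears on it was not tested. The next members on chromosome 9, Cox7a2 and Cox5a, lie 30.8 and 53.0 Mb from Setd2.

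The subunits of the catalytic head of ATP synthase fell together in Setd2 knockout. Atp5b, the beta subunit, was at 1485 and 1512 CPM (wild type), 1093 and 1159 (Setd2 knockout), 1257, 1219 and 1355 (Srsf2 mutated), and 1024, 1040.0 and 1035 (double mutant). Its wild type libraries were the highest of all and no group overlapped wild type. Its log2 fold change in Setd2 knockout was -0.41 ± 0.0714 (SE), edgeR adjusted p = 0.000298, and that of Atp5a1, the alpha subunit, was -0.41 ± 0.0681 (SE), edgeR adjusted p = 0.000189. In complex II, Sdhc, a membrane anchor, changed by -0.40 ± 0.0713 (SE) and Sdhd, Sdhb and Sdha by -0.26, -0.26 and -0.23. The calls of Sdhd, Sdhb and Sdha were lost without Setd2 knockout replicate 1, at edgeR adjusted p = 0.25, 0.161 and 0.239.

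Complex I held the X-linked Ndufb11, an accessory subunit of the membrane arm (chrX:20615326-20617619), at 102 and 102 CPM (wild type), 57.8 and 65.5 (Setd2 knockout), 80.4, 77.7 and 104 (Srsf2 mutated), and 81.6, 89.3 and 94.2 (double mutant). The Setd2 knockout libraries were below every other library. Ndufb11 changed by -0.73 ± 0.12 (SE) (edgeR adjusted p = 0.000193), Ndufv3, an accessory subunit beside the NADH-oxidising site, by -0.57 ± 0.10 (SE) (edgeR adjusted p = 0.000375), and Ndufa11, an accessory membrane subunit, by -0.81 ± 0.19 (SE) (edgeR adjusted p = 0.00309, and 0.0661 without Setd2 knockout replicate 1). In complex IV, Cox7a2l, a Cox7a relative known for joining complexes III and IV, changed by -0.60 ± 0.0799 (SE) and Cox7a2 by -0.63 ± 0.13 (SE), with edgeR adjusted p = 2.8e-05 and 0.00128.

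The members called higher in Setd2 knockout were Cox6b2 and Ndufs1. Cox6b2 (chr7:4751792-4753094), a form of Cox6b best known from testis, was at 16.8 and 20.6 CPM (wild type), 29.3 and 31.0 (Setd2 knockout), 12.9, 11.3 and 13.9 (Srsf2 mutated), and 19.5, 19.2 and 19.0 (double mutant). Setd2 knockout was above all other groups and Srsf2 mutated below them. Its log2 fold change was 0.69 ± 0.12 (SE), edgeR adjusted p = 0.000397. Ndufs1, the iron-sulfur core subunit of complex I (chr1:63143596-63176833), was at 90.6 and 84.9 CPM (wild type), 101 and 102 (Setd2 knockout), 76.1, 76.2 and 80.7 (Srsf2 mutated), and 75.4, 78.3 and 77.7 (double mutant), a log2 difference of 0.21 ± 0.0751 (SE) with edgeR adjusted p = 0.035, which ran from 0.0523 to 0.202 without wild type replicate 2, Setd2 knockout replicate 1 or 2, or double mutant replicate 2 or 3. Both values of Setd2 knockout were above all other libraries. The call was also lost without a filter on low counts (edgeR adjusted p = 0.103). Ndufs1 overlaps the noncoding RNA gene Ino80dos (chr1:63113078-63158290). Ino80dos had 83 and 117 (wild type), 276 and 320 (Setd2 knockout), 211, 237 and 140 (Srsf2 mutated), and 152, 261 and 225 (double mutant) reads. Whether this overlap bears on the Ndufs1 counts was not tested.

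The size of the nuclear count rested on the scaling: 19 members were lower with library totals alone, where 73.4% of all calls were higher (48.4% with TMM). It also shrank without Setd2 knockout replicate 1 or wild type replicate 2, fits that leave 1 library in a group. With any 1 library left out the nuclear median stayed between -0.46 and -0.30. The share of all genes called in those fits is not given here. Of 35 named members called in this comparison, 10 kept the call under every alternative (Atp5a1, Atp5b, Cox6a2, Cox6b2, Cox7a2, Cox7a2l, Ndufb11, Ndufv3, Uqcrc1 and mt-Cytb), while 22 were lost without Setd2 knockout replicate 1 (edgeR adjusted p from 0.0661 to 0.284), 16 without wild type replicate 2 (0.0855 to 0.638) and 17 with library totals alone (0.0502 to 0.919).

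**Figure D2:**
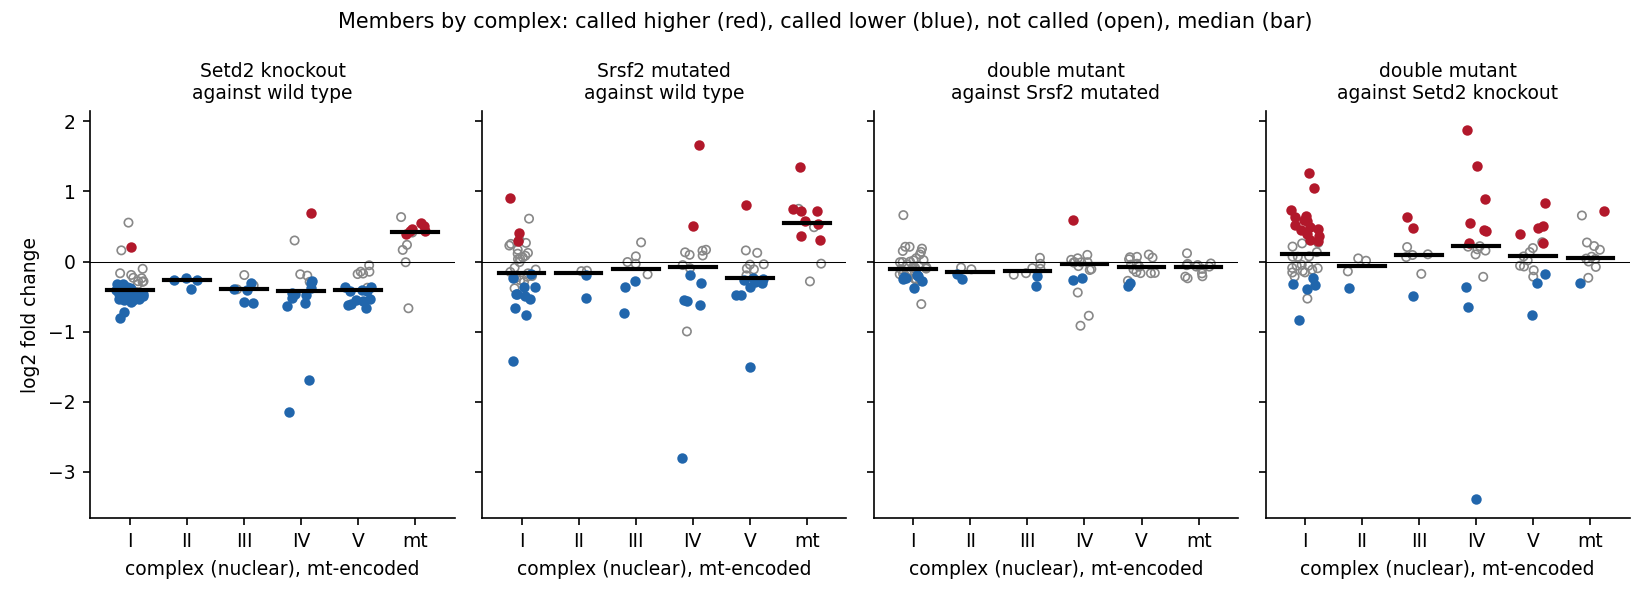
Fitted log2 fold change (y axis) of each member, in 4 panels (Setd2 knockout and Srsf2 mutated against wild type, then double mutant against Srsf2 mutated and against Setd2 knockout), with genes split by complex I to V (nuclear) and the mt-encoded set (x axis). Red points were called higher, blue points lower and open points not called, the bar is the median, and the nuclear median was -0.40, -0.17, -0.10 and 0.10 in panel order, the last of which was -0.08 with library totals alone.

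Srsf2 mutated libraries differed from wild type in both directions. Of 83 nuclear members 31 were lower and 6 higher, where 56.3% of all tested genes were called, 27.8% lower and 28.5% higher. The nuclear median was -0.17 against 0.08 over all genes, and 60 of 83 lay below the median of all genes. Complex V had 9 of 17 genes lower and complex I 11 of 38, and the groups did not overlap in 37 genes that were lower and 6 that were higher, against 33.1% and 33.4% of all genes.

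Uqcrc1, whose library values stand above, changed by -0.74 ± 0.0766 (SE) (edgeR adjusted p = 7.32e-07), and the complex II anchor Sdhc by -0.52 ± 0.0645 (SE) (edgeR adjusted p = 5.38e-06). Sdhc was at 134 and 136 CPM (wild type), 103 and 102 (Setd2 knockout), 94.6, 91.7 and 97.5 (Srsf2 mutated), and 79.9, 80.1 and 77.7 (double mutant), so that wild type was highest and double mutant lowest without overlap. Atp5o, which joins the head of ATP synthase to its stalk (chr16:91925214-91931687), was at 7.34 and 8.91 CPM (wild type), 4.62 and 5.61 (Setd2 knockout), 2.68, 2.20 and 3.80 (Srsf2 mutated), and 2.97, 2.80 and 3.27 (double mutant), all wild type values above all others. It fell by 1.50 on the log2 scale (SE 0.21, edgeR adjusted p = 2.24e-05). Its copy Gm5436 was lower beside it, and both together were at 12.2 ± 0.165 CPM (wild type), 7.74 ± 0.551 (Setd2 knockout), 4.32 ± 1.02 (Srsf2 mutated) and 4.80 ± 0.661 (double mutant). Other genes hold 50.3% of the 50-base stretches of Atp5o. They include the duplicate Atp5o entry without reads (24.6%) and the antisense gene D430001F17Rik (14.8%), which both overlap it. Whether the counting lost reads of Atp5o to this overlap was not tested. In complex I, the accessory subunits Ndufb9 and Ndufa6 changed by -0.76 ± 0.13 (SE) and -0.54 ± 0.0936 (SE), edgeR adjusted p = 0.000183 and 0.000147.

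The members called higher in Srsf2 mutated were Ndufs6, Atp5l, Cox5b, Cox7a1, Ndufa12 and Ndufb8. All but Cox7a1 share stretches with other genes: 84.8% for Atp5l, 26.2% for Ndufa12, 25.9% for Cox5b, 14.6% for Ndufs6 and 13.5% for Ndufb8. Of the 51 nuclear members with under 10% of their stretches shared, 1 was higher and 20 were lower. Ndufs6 was at 20.1 and 30.5 CPM (wild type), 17.4 and 19.4 (Setd2 knockout), 47.7, 38.7 and 56.0 (Srsf2 mutated), and 44.5, 44.0 and 44.2 (double mutant). Every Srsf2 mutated and double mutant library was above every library of the other groups. Its log2 fold change was 0.91 ± 0.16 (SE), edgeR adjusted p = 0.000149, while Ndufs6b, with 56 and 73 (wild type), 50 and 71 (Setd2 knockout), 26, 20 and 28 (Srsf2 mutated), and 36, 41 and 31 (double mutant) reads, changed by -1.42 ± 0.40 (SE), edgeR adjusted p = 0.00706, and 0.0686 without wild type replicate 2. Ndufs6 and Ndufs6b together were at 26.8 ± 7.63 CPM (wild type), 19.7 ± 1.77 (Setd2 knockout), 48.0 ± 8.82 (Srsf2 mutated) and 45.1 ± 0.46 (double mutant), and the sum is nearly that of Ndufs6 alone.

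Atp5l was at 22.9 and 25.9 CPM (wild type), 22.0 and 25.1 (Setd2 knockout), 42.1, 43.8 and 42.4 (Srsf2 mutated), and 43.8, 42.0 and 39.8 (double mutant). Srsf2 mutated and double mutant lay above the other groups without overlap, a log2 fold change of 0.81 ± 0.093 (SE) for Srsf2 mutated against wild type (edgeR adjusted p = 2.2e-06). Its copy Gm10221, identical in the bases shown above, was at 31.5 and 30.8 CPM (wild type), 16.6 and 21.7 (Setd2 knockout), 17.6, 14.8 and 19.8 (Srsf2 mutated), and 18.9, 17.9 and 18.5 (double mutant), with wild type above all others. The sum of both was at 55.6 ± 1.62 CPM (wild type), 42.7 ± 5.83 (Setd2 knockout), 60.1 ± 1.81 (Srsf2 mutated) and 60.3 ± 2.25 (double mutant). How the deposited counting shared out reads between these loci was not tested.

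Cox5b, a zinc-binding subunit of complex IV (chr1:36691449-36693681), was at 72.7 and 111 CPM (wild type), 67.6 and 82.5 (Setd2 knockout), 134, 114 and 143 (Srsf2 mutated), and 139.8, 141 and 137 (double mutant). Each Srsf2 mutated library was above each wild type library, though wild type replicate 2 came close. The log2 fold change was 0.51 ± 0.14 (SE), edgeR adjusted p = 0.00578, but 0.23 with an adjusted p of 0.154 without wild type replicate 1. Here the copy Gm11273 moved the same way, and the sum was at 98.4 ± 29.1 CPM (wild type), 80.7 ± 11.5 (Setd2 knockout), 145 ± 18.6 (Srsf2 mutated) and 155 ± 3.48 (double mutant). Cox7a1, the Cox7a form of heart and skeletal muscle (chr7:30184144-30186078), had 17 and 14 (wild type), 26 and 16 (Setd2 knockout), 60, 35 and 57 (Srsf2 mutated), and 24, 70 and 55 (double mutant) reads, a log2 difference of 1.67 ± 0.50 (SE) with edgeR adjusted p = 0.0101 and 0.0743 without wild type replicate 2. Cox6c2 (chr12:56373593-56373823), a near copy of Cox6c with 52.7% of its stretches shared, had 16 and 18 (wild type), 14 and 19 (Setd2 knockout), 2, 0 and 5 (Srsf2 mutated), and 0, 2 and 2 (double mutant) reads, which were fewer in every Srsf2 mutated and double mutant library than in any other (edgeR adjusted p = 0.037 against wild type, and from 0.0727 to 0.156 without any 1 of the wild type and Setd2 knockout libraries or Srsf2 mutated replicate 1 or 2).

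**Figure D3:**
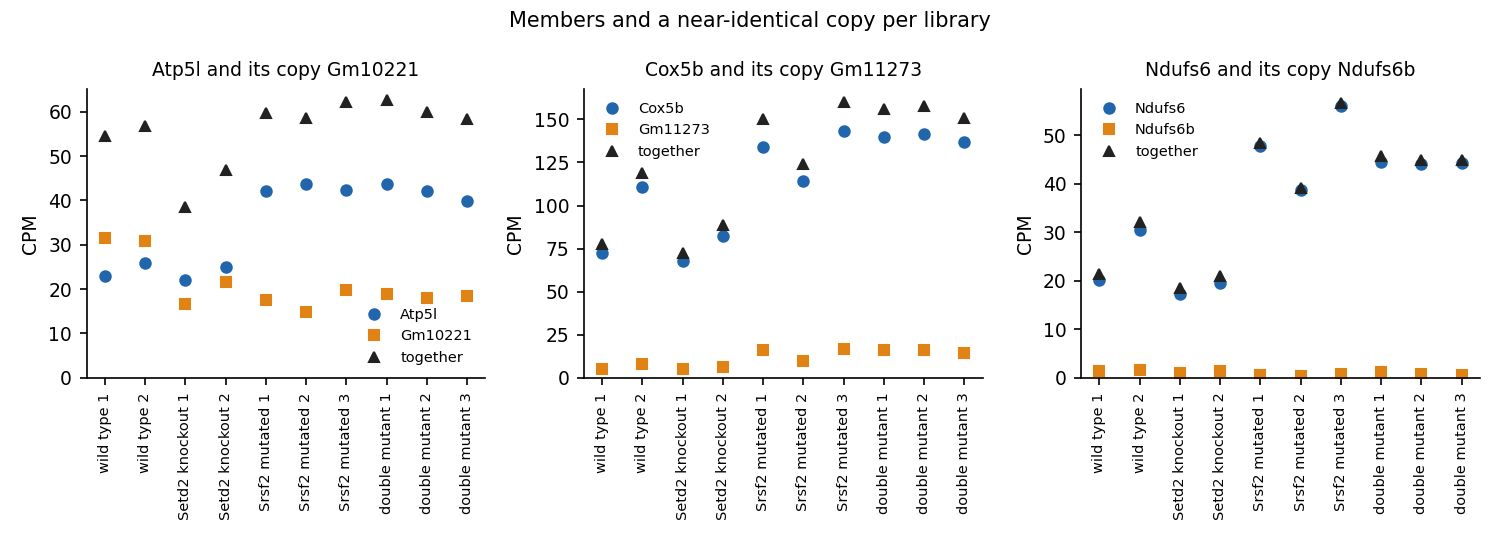
Level (CPM, y axis) of 3 members, 1 copy of each and the sum of both (circles, squares and triangles) in each library (x axis): Atp5l and Gm10221, Cox5b and Gm11273, Ndufs6 and Ndufs6b. In this order the copy holds 52.5%, 25.9% and 14.6% of the member's 50-base stretches. The sum of Atp5l and Gm10221 was 55.6 in wild type and 60.1 in Srsf2 mutated, while the sums of the other pairs were higher in Srsf2 mutated.

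Without wild type replicate 2, 20 nuclear members were lower in Srsf2 mutated, without wild type replicate 1 only 3 were higher, and without Srsf2 mutated replicate 2 12 were higher. With library totals alone 14 were higher and 19 lower, where 60.6% of all calls were higher (50.6% with TMM). Of 31 named calls 15 were kept under every alternative, those of Atp5g2, Atp5l, Atp5o, Cox6b2, Cox7a2, Ndufa6, Ndufb9, Ndufs6, Sdhc, Uqcrc1, mt-Co2, mt-Nd2, mt-Nd4, mt-Nd5 and mt-Nd6.

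Double mutant against Srsf2 mutated gives the difference that goes with Setd2 knockout on the mutated background. Of 83 nuclear members 15 were lower and 1 was higher, where 33.8% of all tested genes were called, 15.9% lower and 17.8% higher. The share of members called lower (15 of 83) was close to the 15.9% of all genes, and the nuclear median was -0.10 against 0.00, with 63 of 83 below the median of all genes. Groups did not overlap in 17 genes that were lower and 1 that was higher, against 21.3% and 24.0% of all genes.

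Atp5a1 was at 1332 and 1314 CPM (wild type), 980.3 and 1006 (Setd2 knockout), 1095, 1072 and 1164 (Srsf2 mutated), and 865, 872 and 886 (double mutant). The 3 double mutant libraries were below every other library. Its log2 fold change against Srsf2 mutated was -0.34 ± 0.0556 (SE), edgeR adjusted p = 0.000141. Atp5b, Uqcrc1 and Sdhc changed by -0.31 ± 0.0583 (SE), -0.34 ± 0.0696 (SE) and -0.26 ± 0.0586 (SE), edgeR adjusted p = 0.00065, 0.00111 and 0.00284. Ndufc1, a small accessory subunit of complex I, changed by -0.38 ± 0.12 (SE) (edgeR adjusted p = 0.0235, and 0.109, 0.0586 and 0.105 without Srsf2 mutated replicate 3, double mutant replicate 1 and double mutant replicate 2). The member called higher was again Cox6b2, by 0.60 ± 0.10 (SE) (edgeR adjusted p = 0.000271).

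Of the 56 nuclear members lower in Setd2 knockout against wild type, 13 (23.2%) were also lower here and 43 were not called, while of all 3846 genes lower there 28.7% were lower here; these comparisons share no library. The 13 included Atp5a1, Atp5b, Cox7a2l, Ndufc1, Sdha, Sdhc, Uqcrc1 and Uqcrfs1. The other two lower members were Ndufa10 and Ndufs3. The count of lower members was 27 without Srsf2 mutated replicate 2, 9 without Srsf2 mutated replicate 3, 6 without double mutant replicate 1, 6 without double mutant replicate 2 and 9 without double mutant replicate 3. It was 33 with library totals alone, where 38.2% of all calls were higher (52.8% with TMM), and 4 members were higher without Srsf2 mutated replicate 3.

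Double mutant against Setd2 knockout gives the difference that goes with mutated Srsf2 when Setd2 is also knocked out. Of 83 nuclear members 29 (34.9%) were higher and 13 lower, where 51.8% of all tested genes were called, 26.0% higher and 25.8% lower. Among the 51 nuclear members with under 10% of their stretches shared, 13 (25.5%) were higher and 8 (15.7%) lower. Their share of higher genes was thus near that of all genes. Whether shared sequence bears on the higher calls was not tested. The nuclear median was 0.10 against 0.01 over all genes, and was -0.08 with library totals alone and -0.01 without Setd2 knockout replicate 1. Relative to the median of all genes, 31 of 83 lay below it. Complex I had 15 genes higher and 5 lower of 38, complex IV 7 and 3 of 16, and complex V 5 and 3 of 17.

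Ndufs6 rose by 1.26 ± 0.16 (SE), edgeR adjusted p = 6.5e-06. Ndufa1, an X-linked accessory subunit of complex I (chrX:37187588-37191163), was at 24.6 and 33.2 CPM (wild type), 17.4 and 22.0 (Setd2 knockout), 39.3, 28.2 and 40.2 (Srsf2 mutated), and 42.8, 40.5 and 39.1 (double mutant). Setd2 knockout held the lowest values, with no overlap with double mutant, and its log2 fold change was 1.05 ± 0.16 (SE), edgeR adjusted p = 3.36e-05. Cox5b, Atp5l and Ndufb11 rose by 0.89 ± 0.14 (SE), 0.83 ± 0.093 (SE) and 0.52 ± 0.11 (SE), edgeR adjusted p = 6.08e-05, 1.55e-06 and 0.000882. With its copy Gm10221, Atp5l summed to 42.7 ± 5.83 CPM in Setd2 knockout and 60.3 ± 2.25 in double mutant.

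Among the lower members, Cox6b2 changed by -0.65 ± 0.11 (SE), Uqcrc1 by -0.50 ± 0.077 (SE), Ndufs1 by -0.40 ± 0.0681 (SE) and Sdhc by -0.37 ± 0.0649 (SE), with edgeR adjusted p = 0.000129, 4.83e-05, 0.000126 and 0.000145. Atp5o changed by -0.76 ± 0.22 (SE) (edgeR adjusted p = 0.00793), and its call was lost without Setd2 knockout replicate 2. Ndufb2, an accessory subunit with 70 to 217 reads per library, changed by -0.84 ± 0.28 (SE) (edgeR adjusted p = 0.0181). The call of Ndufb2 was lost without Setd2 knockout replicate 2, and without double mutant replicate 3 (edgeR adjusted p = 0.0779). Ndufb2 overlaps the annotated genes Gm42420, Gm16272 and Braf, and whether the counting lost reads to this overlap was not tested.

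Of the nuclear members called in Srsf2 mutated against wild type, all 6 that were higher were also higher here, against 54.6% of the 5498 genes of the whole table. Of the 31 that were lower, 11 (35.5%) were also lower, against 60.1% of 5371 such genes; no library stands in both comparisons. Ndufv3 was lower there and higher here. Of the 6 higher members, all but Cox7a1 share stretches with other genes, and whether that sharing bears on both comparisons was not tested. Without Setd2 knockout replicate 1 only 10 nuclear members were higher, and 5 and 8 were lower without Setd2 knockout replicate 2 and double mutant replicate 1. With library totals alone 20 were higher and 27 lower, where 37.5% of all calls were higher (50.1% with TMM).

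The interaction asks whether the difference that goes with Setd2 knockout was the same on the mutated as on the wild type background: it is the log2 fold change of double mutant against Srsf2 mutated minus that of Setd2 knockout against wild type. Of 83 nuclear members 17 had a higher and 0 a lower value, where 31.9% of all tested genes were called, 16.7% higher and 15.2% lower. DESeq2 gave 21 higher and 0 lower, and edgeR gave 1 lower at an unadjusted p under 0.05. The nuclear median was 0.29 against -0.07 over all genes, and 7 of 83 lay below the median of all genes. With library totals alone the all-gene median was -0.38 and the nuclear median -0.02, 2 nuclear members were called higher and 7 lower, and 24.4% of all calls were higher (52.4% with TMM).

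Ndufb11 had an interaction of 0.75 ± 0.15 (SE) (edgeR adjusted p = 0.00144): it was lower in Setd2 knockout than in wild type, by -0.73, and differed by 0.02 between double mutant and Srsf2 mutated. Ndufv3 was at 56.5 and 64.8 CPM (wild type), 38.9 and 42.8 (Setd2 knockout), 47.6, 43.0 and 51.0 (Srsf2 mutated), and 54.0, 50.2 and 53.0 (double mutant), lower in Setd2 knockout than in any other library and with double mutant overlapping Srsf2 mutated. Its interaction was 0.72 ± 0.13 (SE), edgeR adjusted p = 0.000501. Ndufa6 and Cox7a2 had interactions of 0.61 ± 0.13 (SE) and 0.66 ± 0.17 (SE), edgeR adjusted p = 0.00223 and 0.00712, and 0.0753 and 0.104 with library totals alone. The calls of Ndufb11 and Ndufv3 were kept under every alternative. The nuclear count was 8 without wild type replicate 2, 4 without Setd2 knockout replicate 1, 8 without Srsf2 mutated replicate 1 and 45 without Srsf2 mutated replicate 3.

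Tissue forms of the same subunit did not all move together. Cox6a1, the widely expressed form, was at 247 and 256 CPM (wild type), 169 and 200.4 (Setd2 knockout), 232, 216 and 282 (Srsf2 mutated), and 249, 250.2 and 254 (double mutant), while Cox6a2, the heart and muscle form (chr7:128205435-128206387), had 52 and 66 (wild type), 14 and 15 (Setd2 knockout), 56, 57 and 90 (Srsf2 mutated), and 23, 61 and 64 (double mutant) reads. Cox6a1 differed between Setd2 knockout and wild type by -0.45 ± 0.11 (SE) and Cox6a2 by -2.15 ± 0.48 (SE), edgeR adjusted p = 0.00396 and 0.00233. The Cox6a2 counts were lowest in the libraries labelled Setd2 knockout, and double mutant exceeded Setd2 knockout by 1.88 ± 0.46 (SE) (edgeR adjusted p = 0.00259). Cox6a2 lies within the span of another gene, Itgad (chr7:128154376-128223816). Itgad had 62 and 52 (wild type), 37 and 38 (Setd2 knockout), 104, 114 and 77 (Srsf2 mutated), and 57, 116 and 123 (double mutant) reads, also fewest in Setd2 knockout. Whether this overlap bears on the Cox6a2 counts was not tested. The Cox6a1 call was lost without Setd2 knockout replicate 1 (adjusted p = 0.0885).

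Of the Cox4 forms, the usual Cox4i1 changed by -0.47 ± 0.12 (SE) in Setd2 knockout (edgeR adjusted p = 0.00583, and 0.101 without Setd2 knockout replicate 1). Cox4i2, a form known from lung and from low oxygen (chr2:152754173-152765037), had 82 and 83 (wild type), 18 and 38 (Setd2 knockout), 62, 49 and 20 (Srsf2 mutated), and 20, 11 and 32 (double mutant) reads, and its difference of -1.70 ± 0.56 (SE) had an edgeR adjusted p = 0.0258 that became 0.0814, 0.0897 and 0.213 without wild type replicate 1, wild type replicate 2 and Setd2 knockout replicate 1. Cox6b1 fell by 0.38 on the log2 scale in Setd2 knockout (SE 0.10, edgeR adjusted p = 0.00774, and 0.115 and 0.1 without wild type replicate 2 and Setd2 knockout replicate 1), while Cox6b2 rose. Cox8a, the expressed Cox8 form, changed by -0.46 ± 0.12 (SE) in Setd2 knockout (edgeR adjusted p = 0.00618, and 0.0964 and 0.128 without the same libraries), and Cox8c had no reads.

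The genes Atp5g1, Atp5g2 and Atp5g3 encode the same mature c subunit, which forms the rotor ring of ATP synthase. Atp5g2, with 87.4% of its stretches shared, was at 217 and 216 CPM (wild type), 146 and 151 (Setd2 knockout), 168, 118 and 179 (Srsf2 mutated), and 126, 128 and 129.5 (double mutant), with wild type above all others. It changed by -0.54 ± 0.13 (SE) in Setd2 knockout and -0.48 ± 0.12 (SE) in Srsf2 mutated, edgeR adjusted p = 0.00409 and 0.00267. Atp5g1 changed by -0.30 ± 0.0989 (SE) in Srsf2 mutated and differed by -0.14 in Setd2 knockout, edgeR adjusted p = 0.0161 and 0.315, and the former became 0.0806, 0.0552 and 0.0562 without wild type replicate 2, Srsf2 mutated replicate 1 and Srsf2 mutated replicate 2. Atp5g3 was called in none of the comparisons, nor were Atp5f1, Atp5k, Cox7b, Ndufa5, Ndufb10, Ndufb4c, Ndufv1 and Uqcrb.

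The X-linked members are Ndufa1, Ndufb11 and Cox7b. They are set apart because the Xist and Ddx3y levels differed between the groups. Cox7b was at 85.5 and 97.2 CPM (wild type), 71.9 and 87.0 (Setd2 knockout), 99.5, 82.2 and 119 (Srsf2 mutated), and 96.3, 90.5 and 89.5 (double mutant). Its groups overlapped, except that each double mutant library was above each Setd2 knockout library. Ndufa1 and Ndufb11 were lowest in Setd2 knockout, where neither Xist nor Ddx3y was above 1 CPM.

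**Figure D4:**
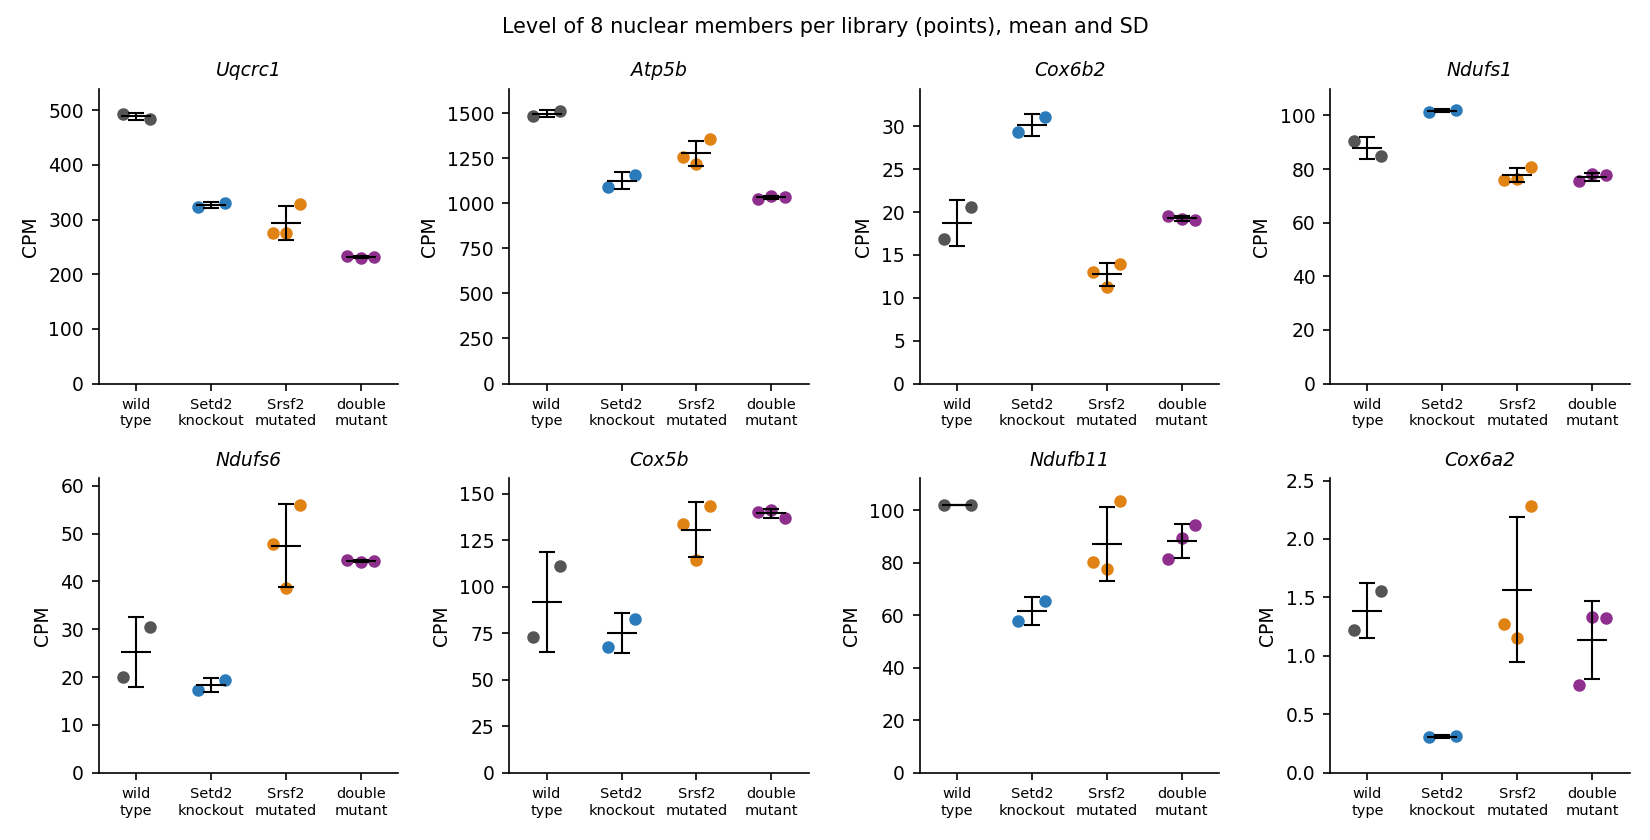
Level (CPM, y axis from 0) of Uqcrc1, Atp5b, Cox6b2, Ndufs1, Ndufs6, Cox5b, Ndufb11 and Cox6a2 in each library (points) by group (x axis), with the group mean and SD as bars. Uqcrc1 and Atp5b were highest in wild type, Cox6b2 and Ndufs1 highest in Setd2 knockout, and Ndufs6 higher in both groups with mutated Srsf2.

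The mt-encoded genes did not follow the nuclear ones. In the libraries labelled Setd2 knockout 6 of 12 were higher than in wild type and 0 lower (DESeq2 6 and 0, and 0 lower at an unadjusted p under 0.05), where 18.7% of all tested genes were higher and 19.9% lower, and their median was 0.42 against 0.04 over all genes. In Srsf2 mutated against wild type 8 were higher and 0 lower (DESeq2 7 and 0, and 0 lower at an unadjusted p under 0.05), where 28.5% of all genes were higher and 27.8% lower, with a median of 0.56 against 0.08. In double mutant against Srsf2 mutated none was called by edgeR or by DESeq2, 1 had an unadjusted p under 0.05, and the median was -0.07 against 0.00, where 33.8% of all genes were called. In double mutant against Setd2 knockout 1 was higher and 1 lower, where 26.0% and 25.8% of all genes were, and the median was 0.06 against 0.01, which became -0.13 with library totals alone. Among the 5 genes with under 10% of stretches shared (mt-Nd1, mt-Nd2, mt-Nd5, mt-Nd6 and mt-Cytb), 4 were higher in Setd2 knockout and all 5 in Srsf2 mutated.

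mt-Cytb was at 2026 and 1514 CPM (wild type), 2748 and 2447 (Setd2 knockout), 2451, 1958 and 2461 (Srsf2 mutated), and 2263, 2148 and 2224 (double mutant). Setd2 knockout replicates 1 and 2 were above wild type and wild type replicate 2 was the lowest. It rose by 0.55 ± 0.12 (SE) in Setd2 knockout and by 0.37 ± 0.11 (SE) in Srsf2 mutated, edgeR adjusted p = 0.00223 and 0.0112. The second of these was 0.17 with an adjusted p of 0.218 without wild type replicate 2.

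mt-Nd6, the protein gene of the light strand, was at 166 and 121 CPM (wild type), 198 and 191 (Setd2 knockout), 226, 234 and 261 (Srsf2 mutated), and 206, 216 and 189 (double mutant). All 3 other groups were above both wild type libraries. It rose by 0.44 ± 0.12 (SE) in Setd2 knockout and by 0.75 ± 0.11 (SE) in Srsf2 mutated, edgeR adjusted p = 0.00825 and 2.97e-05, and the former p became 0.126 without wild type replicate 2. mt-Nd2 was at 748 and 496 CPM (wild type), 912 and 765 (Setd2 knockout), 1112, 868 and 1102 (Srsf2 mutated), and 1008, 961 and 962 (double mutant), and rose by 0.72 ± 0.14 (SE) in Srsf2 mutated and by 0.43 ± 0.15 (SE) in Setd2 knockout (edgeR adjusted p = 0.000407 and 0.0345, the latter 0.395 without wild type replicate 2, 0.224 without Setd2 knockout replicate 1, and 0.0501 and 0.0512 without double mutant replicates 1 and 3).

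mt-Co1, the catalytic subunit of complex IV, was at 6751 and 5312 CPM (wild type), 8440.0 and 7461 (Setd2 knockout), 6356, 5302 and 6064 (Srsf2 mutated), and 6725, 6298 and 6209 (double mutant). It was highest in Setd2 knockout, where it rose by 0.40 ± 0.11 (SE) (edgeR adjusted p = 0.00778, and 0.0939 and 0.0706 without wild type replicate 2 and Setd2 knockout replicate 1), and the Srsf2 mutated libraries overlapped wild type, with a difference of -0.03. mt-Nd4 rose by 0.51 ± 0.13 (SE) and 0.57 ± 0.12 (SE) in these comparisons and mt-Nd5 by 0.46 ± 0.13 (SE) and 0.54 ± 0.12 (SE), and mt-Nd1, at 1587 and 1212 CPM (wild type), 1748 and 1554 (Setd2 knockout), 1842, 1484 and 1883 (Srsf2 mutated), and 1716, 1619 and 1618 (double mutant), differed by 0.24 and rose by 0.31 ± 0.11 (SE). The edgeR adjusted p in Setd2 knockout was 0.00684 for mt-Nd4, 0.0119 for mt-Nd5 and 0.133 for mt-Nd1. For mt-Nd4 and mt-Nd5 it became 0.102 and 0.159 without wild type replicate 2 and 0.0883 and 0.123 when Setd2 knockout replicate 1 was left out, and for mt-Nd1 in Srsf2 mutated it went from 0.0263 to 0.383, 0.0787 and 0.0522 without wild type replicate 2, Srsf2 mutated replicate 1 and Srsf2 mutated replicate 3.

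The largest fold among the mt-encoded genes was that of mt-Co2, whose sequence is the one shown above with its identical copy. It was at 18.0 and 14.8 CPM (wild type), 23.1 and 20.7 (Setd2 knockout), 39.6, 33.6 and 52.6 (Srsf2 mutated), and 32.9, 37.3 and 38.3 (double mutant). Srsf2 mutated and double mutant were above the other groups without overlap, by 1.35 ± 0.16 (SE) for Srsf2 mutated against wild type and 0.73 ± 0.15 (SE) for double mutant against Setd2 knockout (edgeR adjusted p = 2.48e-06 and 0.000802). Together mt-Co2 and Gm28661 summed to 29.5 ± 5.56 CPM (wild type), 39.5 ± 0.912 (Setd2 knockout), 65.9 ± 13.8 (Srsf2 mutated) and 58.3 ± 2.93 (double mutant). mt-Co3 and mt-Atp6 ran from 6.80 to 19.7 and from 4.82 to 18.6 CPM over the 10 libraries, and mt-Nd3 and mt-Nd4l from 0.517 to 1.14 and from 0.141 to 0.481, and all 4 have nuclear copies that share nearly all of their stretches. Of these 4, mt-Co3 was called, in Srsf2 mutated against wild type, by 0.73 ± 0.28 (SE) (edgeR adjusted p = 0.0384, 0.352 without wild type replicate 2, and from 0.0511 to 0.0961 without Srsf2 mutated replicate 1 or 3 or any double mutant library).

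In the interaction 5 of 12 mt-encoded genes had a lower value and 0 a higher one (also by DESeq2, and 0 at an unadjusted p under 0.05), where 15.2% of all genes were lower and 16.7% higher, with a median of -0.50 against -0.07 over all genes: mt-Cytb -0.60 ± 0.16 (SE), mt-Nd6 -0.68 ± 0.15 (SE), mt-Co2 -0.62 ± 0.21 (SE), mt-Nd4 -0.54 ± 0.17 (SE) and mt-Nd5 -0.49 ± 0.17 (SE). The edgeR adjusted p was 0.00828 for mt-Cytb and 0.00281 for mt-Nd6, and these 2 calls were kept under every alternative, while those of mt-Co2, mt-Nd4 and mt-Nd5 were lost without wild type replicate 2 (0.144 to 0.192), Setd2 knockout replicate 1 (0.093 to 0.126) or double mutant replicate 2 (0.0542 to 0.084). The count of mt-encoded genes higher in Setd2 knockout was 1, with 1 lower, without wild type replicate 2, and was 2 when Setd2 knockout replicate 1 was left out. In Srsf2 mutated it was 5, with 1 lower, without wild type replicate 2, and the interaction count ranged from 2 (without wild type replicate 2, Setd2 knockout replicate 1 or double mutant replicate 2) to 8 (without wild type replicate 1 or Srsf2 mutated replicate 2).

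**Figure D5:**
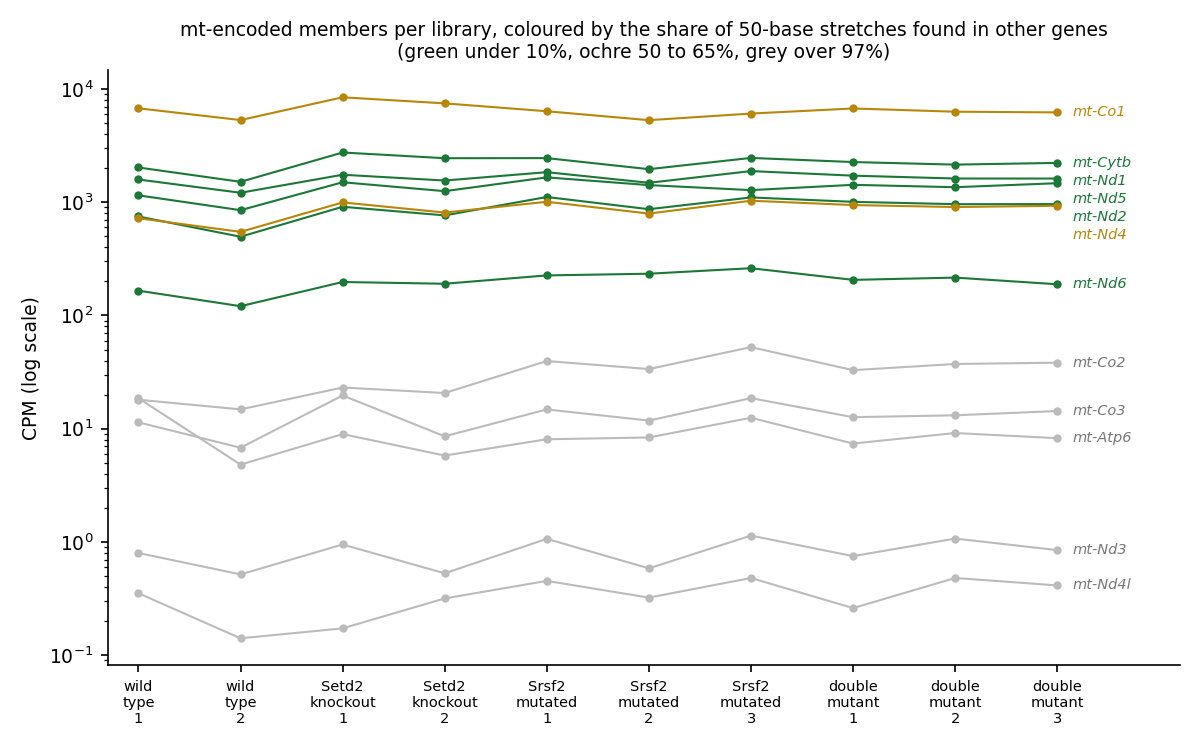
Level (CPM, logarithmic y axis) of the 12 mt-encoded members in each library (points) by group, coloured by the share of 50-base stretches found in transcripts of other genes. The genes without shared stretches (mt-Nd1, mt-Nd6 and mt-Cytb) had wild type replicate 2 as their lowest library, and mt-Co2, with all stretches shared, was higher in both groups with mutated Srsf2 than in the others.

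Libraries of a group also differed from each other across the members. For the 80 nuclear members with a transcript length, 77 were higher in Srsf2 mutated replicate 3 than in replicate 2, with a median difference of 0.34 on the log2 scale. Between the Setd2 knockout libraries 74 of 80 were higher in replicate 2, by a median of 0.14, and between the wild type libraries 63 of 80 were higher in replicate 2, by 0.09, where the 5 mt-encoded genes with few shared stretches differed by -0.44. The double mutant libraries differed from each other by medians of 0.00 to 0.01. The nuclear members have short transcripts, with a median of 823.5 bases, and all tested genes no longer than that also differed between Srsf2 mutated replicates 3 and 2, by a median of 0.33, against 0.00 in longer genes.

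Between groups, transcript length went with part of the differences. In Setd2 knockout against wild type the median was -0.43 for the 40 shorter and -0.35 for the 40 longer nuclear members, while it was -0.31 for the 581 shorter and -0.05 for the 13479 longer genes among all genes with a length. In double mutant against Setd2 knockout it was 0.24 for the shorter and -0.02 for the longer members, and 0.24 and -0.08 for all shorter and longer genes. In the interaction it was 0.36 for the shorter and 0.17 for the longer members, and 0.27 and 0.02 for all shorter and longer genes. In Srsf2 mutated against wild type it was -0.04 and -0.19 for the members and 0.00 and -0.10 for all genes, and in double mutant against Srsf2 mutated -0.07 and -0.16 for the members and -0.03 and -0.02 for all genes. The part of transcript length in the results was not tested. The median SD of log2 CPM within groups was 0.14 for the nuclear members, 0.19 for the mt-encoded members and 0.16 for all tested genes.

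Other genes of mitochondrial energy metabolism were read from lists, beside 19.9% lower and 18.7% higher of all genes in Setd2 knockout against wild type and 27.8% and 28.5% in Srsf2 mutated against wild type. Of 77 mitochondrial ribosomal protein genes, 27 (35.1%) were lower and 3 higher in Setd2 knockout, and 30 (39.0%) and 3 in Srsf2 mutated, and the lower shares were above those of all genes. Of 47 assembly factors, which help build the complexes, 6 (12.8%) were lower and 2 higher in Setd2 knockout, below the share of all genes, and 23 (48.9%) and 4 in Srsf2 mutated, above it for lower genes. Of 18 electron carriers and subunits that the name rule does not reach, 4 (22.2%) were lower and 0 higher in Setd2 knockout, near the share of all genes for lower ones, and 11 (61.1%) and 4 in Srsf2 mutated. Among these lists, Coa3, an assembly factor of complex IV, changed by -0.77 ± 0.12 (SE) in Setd2 knockout (edgeR adjusted p = 9.51e-05), and Cox17, a copper chaperone of complex IV, by 1.23 ± 0.24 (SE) (edgeR adjusted p = 0.000763), the opposite direction. Cox15, which makes heme A for complex IV, changed by -0.92 ± 0.0742 (SE) in Srsf2 mutated (edgeR adjusted p = 4.02e-08), and Coq9, needed for coenzyme Q synthesis, by -0.71 ± 0.0853 (SE) (edgeR adjusted p = 3.74e-06).

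Of 28 genes that transcribe mitochondrial DNA or process and maintain its products, 11 (39.3%) were higher and 3 (10.7%) lower in Setd2 knockout against wild type, where 18.7% and 19.9% of all genes were. In Srsf2 mutated against wild type, where 8 mt-encoded members were higher, 4 (14.3%) of the 28 were higher and 11 (39.3%) lower, against 28.5% and 27.8% of all genes. In double mutant against Setd2 knockout 20 (71.4%) were lower and 0 higher, against 25.8% and 26.0% of all genes. Lrpprc, which stabilises mitochondrial mRNAs, changed by 0.39 ± 0.0727 (SE) in Setd2 knockout and by -0.63 ± 0.0657 (SE) in double mutant against it, edgeR adjusted p = 0.000576 and 6.88e-07. Pnpt1, a mitochondrial RNA-degrading enzyme, changed by 0.64 ± 0.0832 (SE) and -0.42 ± 0.0749 (SE), edgeR adjusted p = 2.05e-05 and 0.000195. Polrmt, the mitochondrial RNA polymerase, differed by 0.02 in Setd2 knockout and changed by -0.89 ± 0.084 (SE) in Srsf2 mutated (edgeR adjusted p = 2.58e-07). The mitochondrial ribosomal RNAs mt-Rnr1 and mt-Rnr2, encoded beside the members, rose by 0.77 ± 0.0967 (SE) and 1.44 ± 0.12 (SE) in Srsf2 mutated, edgeR adjusted p = 5.47e-06 and 5.18e-08. They rose again in double mutant against Srsf2 mutated, by 0.85 ± 0.0846 (SE) and 0.64 ± 0.10 (SE) (edgeR adjusted p = 8.55e-07 and 0.000111), and differed by -0.05 and 0.16 in Setd2 knockout against wild type (edgeR adjusted p = 0.745 and 0.328). Their interactions of 0.90 ± 0.13 (SE) and 0.48 ± 0.16 (SE) (edgeR adjusted p = 8.17e-05 and 0.0307) were opposite in sign to those called among the mt-encoded members.

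Of 18 genes of the TCA cycle, which feeds the respiratory chain, 6 (33.3%) were lower and 0 higher in Setd2 knockout, 9 (50%) and 2 in Srsf2 mutated, and 9 (50%) and 0 in double mutant against Srsf2 mutated, where 19.9%, 27.8% and 15.9% of all genes were lower. Idh2 changed by -0.51 ± 0.0799 (SE) in Setd2 knockout and by -0.58 ± 0.0654 (SE) in double mutant against Srsf2 mutated (edgeR adjusted p = 0.000119 and 3.69e-06). Of 27 glycolysis genes 18 (66.7%) were lower and 3 higher in Setd2 knockout, and 16 (59.3%) and 6 in Srsf2 mutated. The lactate exporter Slc16a3 changed by -1.77 ± 0.11 (SE) in Setd2 knockout and 3.92 ± 0.12 (SE) in double mutant against it, and the glucose transporter Slc2a1 by 1.45 ± 0.10 (SE) in Srsf2 mutated, with edgeR adjusted p = 1.3e-08, 1.64e-13 and 7.93e-09. Of 12 regulators of respiratory genes 2 were higher and 2 lower in Setd2 knockout, 16.7% each, near the shares of all genes, and Myc changed by -1.02 ± 0.0719 (SE) in Srsf2 mutated and -1.58 ± 0.0721 (SE) in double mutant against Setd2 knockout (edgeR adjusted p = 8.72e-09 and 3.01e-11).

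The promoters of the nuclear members (250 bases before to 50 after the gene start, RefSeq on GRCm38.p6) were searched on both strands for motifs. Of the 83 members, 66 matched a promoter entry by symbol, gene identifier or synonym. The NRF1 motif GCGCATGCGC, named for a factor known to bind promoters of respiratory genes, stood in 5 members (7.6%) and in 1.1% of all 27025 genes with a promoter entry. Its core GCATGCGC, which overlaps it, stood in 10 members (15.2%) and 3.0% of all genes. The ETS motif CCGGAAG stood in 25.8% against 9.9%, the YY1 motif AAGATGGCG in 10.6% against 1.6%, TATAAA in 9.1% against 15.7% and CCAAT in 43.9% against 41.1%. The 60-base windows around the NRF1 motif (capitals) are shown for the 4 members in which it lies before the start, with its first base 50 bases upstream in Atp5k (chr5:108434415-108434474, minus strand), 162 in Cox6a1 (chr5:115349086-115349145, minus strand), 42 in Atp5g2 (chr15:102671055-102671114, minus strand) and 60 in Ndufa11 (chr17:56717677-56717736, plus strand).
Atp5k: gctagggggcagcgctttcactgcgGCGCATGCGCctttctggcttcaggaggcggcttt
Cox6a1: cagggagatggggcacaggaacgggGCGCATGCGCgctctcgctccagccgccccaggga
Atp5g2: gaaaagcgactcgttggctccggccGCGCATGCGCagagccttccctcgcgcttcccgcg
Ndufa11: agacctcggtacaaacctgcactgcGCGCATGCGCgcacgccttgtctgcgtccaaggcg
In Uqcrc1 the motif lay 30 bases after the start. Of these 5 members, 4 were lower in Setd2 knockout (Cox6a1, Atp5g2, Ndufa11 and Uqcrc1) and Atp5k was called in no comparison. Of all 83 nuclear members 67.5% were lower there, and of all tested genes 19.9%. Whether the motif goes with the lower levels was not tested. A match describes the letters of these windows and is no evidence of binding.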

How the data were processed

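RNA-seq libraries of 10 mouse HSPC samples were analysed as deposited by the authors in 3 tables of 2 groups each. The deposited counts are whole numbers of reads per gene, per the file headers, and were the values tested. Beside them the tables hold FPKM, per the file headers. Each FPKM was the count over the gene length in the table and over the total of its library, and served for levels per length. The authors' deposited log2 fold change with its standard error, their p-value and adjusted p-value, a base mean score of normalised counts, and other annotation columns were not used. The 5 libraries in 2 tables had identical counts in both, and 0 columns of single samples were left unassigned. The submitters' processing notes name HISAT2 2.0.5, STAR 2.6.1a, SAMtools 1.7, HTSeq 0.9.1, featureCounts 2.0.1, DESeq2 1.22.2 and Seurat 3.2.0 and builds of mouse (GRCm38, mm10) and human (GRCh38, hg38), and do not assign them to steps. Whether counting used strand is not given in the sources used here. Reads that fit several loci may be dropped or shared by the authors' counting, which bears on genes with copies.

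Genes were filtered with filterByExpr and fitted with edgeR 4.0.16 (limma 3.58.1, R 4.3.3) in 1 quasi-likelihood model with a term per group over all 10 libraries, after TMM scaling, and tested on simulated counts first. CPM are counts scaled to the TMM-adjusted library size. DESeq2 1.42.0, other scalings, other filters, fits of the compared groups only, a replicate block and leaving out each library were alternatives. Within each group the libraries differed by more than counting noise, and none was a duplicate. Same-numbered libraries of different groups did not deviate together (correlations from -0.028 to 0.040 over 13 pairs, and from -0.057 to 0.057 over 24 pairs of unlike number), so the numbers were not used for pairing. Tables and figures were made with Python 3.11.15, pandas 2.3.3, numpy 2.4.6 and matplotlib 3.10.9. Gene positions and the transcripts searched for copies came from GENCODE M21 (GRCm38) and promoters from RefSeq (GRCm38.p6).

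The members and gene lists were chosen with earlier results of these data known. Named were every mt-encoded member, the 4 called nuclear members of largest change in each direction without overlap of groups (in the interaction the 4 of smallest p), the 2 highest per complex by FPKM, paralogous and X-linked subunits, complex II, and up to 2 genes per list and comparison. Cox5a, Ndufa10, Ndufs3, Ndufb8, Ndufa12 and members never called are named outside that rule, after their values were seen, to account for small counts. A library total of 32117387 to 50445434 counts leaves little counting error for most members, while the weakly expressed ones rest on few reads.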

Additional observations from a re-analysis of the deposited data

Results flagged for a closer look

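The difference between Setd2 knockout and its control was itself different on the mutated Srsf2 background for some members, by the test of that difference. Of the 83 nuclear members 17 (20.5%) had a higher value on the mutated background, where 16.7% of all tested genes did, a share near that of the members. Of the 12 mt-encoded members 5 (41.7%) had a lower one, where 15.2% of all tested genes did. The values of the nuclear members named by the rule were 1.71 for Cox6a2, 0.75 for Ndufb11, 0.74 for Ndufa1, 0.72 for Ndufv3, 0.66 for Cox7a2, 0.61 for Ndufa6, 0.49 for Cox6a1, 0.46 for Cox4i1, 0.45 for Cox8a and 0.37 for Cox7a2l on the log2 scale. Each of these genes was below wild type in the libraries labelled Setd2 knockout. The mt-encoded values were -0.68 for mt-Nd6, -0.62 for mt-Co2, -0.60 for mt-Cytb, -0.54 for mt-Nd4 and -0.49 for mt-Nd5. The calls of Ndufb11, Ndufv3, mt-Cytb and mt-Nd6 were kept under every alternative, and the calls of Cox4i1, Cox6a1, Cox6a2, Cox7a2, Cox7a2l, Cox8a, Ndufa1 and Ndufa6 were lost with library totals alone (edgeR adjusted p from 0.0725 to 0.728). Over all 18 alternatives, the call of Cox4i1 was lost under 11, and those of Cox6a2 and Cox8a under 10 each. The calls of Cox7a2l, Cox6a1 and Ndufa1 were lost under 5, 4 and 3, and those of Cox7a2 and Ndufa6 under 1 each. Late neutrophil markers also differed in this way: all 12 were higher in the interaction, with a median of 2.85, and their part in these values was not tested. So did short transcripts: all genes no longer than 823.5 bases had a median interaction of 0.27 and longer genes 0.02, and the 80 nuclear members with a known length, for which 823.5 is the median, had 0.29.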

How the results depend on the processing

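Of the 112 calls of named members, 46 were kept under every alternative, 66 were lost under at least 1 and 0 reversed. DESeq2 gave 2 nuclear members higher in double mutant against Srsf2 mutated. With at least 10 counts in every library, nuclear members were 13 higher and 18 lower in Srsf2 mutated against wild type (median -0.046), 2 higher in double mutant against Srsf2 mutated and 1 lower in the interaction. Without a filter, nuclear members were 1 higher in Setd2 knockout and 34 higher in the interaction, and mt-encoded members 1 lower in Setd2 knockout, 1 lower in double mutant against Srsf2 mutated, 2 higher and 2 lower in double mutant against Setd2 knockout and 9 lower in the interaction. With only the groups compared, 20 nuclear members were lower in Srsf2 mutated, and mt-encoded members were 1 lower in double mutant against Srsf2 mutated and 2 higher and 2 lower in double mutant against Setd2 knockout. With upper-quartile scaling, nuclear members were 11 higher and 20 lower in Srsf2 mutated, and 5 higher and 1 lower in the interaction (median 0.15), and mt-encoded members 1 lower in double mutant against Srsf2 mutated, 2 lower in double mutant against Setd2 knockout and 8 lower in the interaction.

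With library totals without scaling factors (added after seeing the data), nuclear members were 19 lower in Setd2 knockout (median -0.18), 14 higher and 19 lower in Srsf2 mutated (median -0.0365), 33 lower in double mutant against Srsf2 mutated, 27 lower in double mutant against Setd2 knockout (median -0.081, a reversal) and 2 higher and 7 lower in the interaction (median -0.0219, a reversal). The mt-encoded median was 0.64 in Setd2 knockout, -0.13 in double mutant against Setd2 knockout (a reversal) and -0.81 in the interaction, with 1, 2 and 9 lower in double mutant against Srsf2 mutated, double mutant against Setd2 knockout and the interaction. These shifts follow the move of all genes by construction. On the TMM-scaled library size the nuclear share was 1.09% in wild type, 0.835% in Setd2 knockout and 0.861% in double mutant and the mt-encoded share 1.39% in double mutant, and over nuclear gene counts the nuclear share in double mutant was 0.838%.

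The replicate block, with numbers that did not pair the samples, gave 2 mt-encoded members lower in double mutant against Setd2 knockout and 8 lower in the interaction, and it moved no other count by over 1.5 times.

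Leaving out 1 library at a time, nuclear members in Setd2 knockout against wild type ranged from 1 to 2 higher and 19 to 65 lower (median -0.46 to -0.30), in Srsf2 mutated against wild type from 3 to 12 higher and 20 to 46 lower (-0.22 to -0.09), in double mutant against Srsf2 mutated from 1 to 4 higher and 6 to 27 lower (-0.20 to -0.01), in double mutant against Setd2 knockout from 10 to 36 higher and 5 to 16 lower (-0.0139 to 0.19, reversed without Setd2 knockout replicate 1), and in the interaction from 4 to 45 higher and 0 to 0 lower (0.17 to 0.41). The mt-encoded members ranged in the same order from 1 to 8 higher and 0 to 1 lower (0.23 to 0.69), from 5 to 9 higher and 0 to 1 lower (0.28 to 0.91), from 0 to 0 higher and 0 to 1 lower (-0.22 to 0.0058, reversed without Srsf2 mutated replicate 3), from 1 to 1 higher and 0 to 2 lower (-0.14 to 0.18, reversed without Setd2 knockout replicate 2), and from 0 to 1 higher and 2 to 8 lower (-0.80 to -0.27). Where leaving out a library left a group with 1 sample, that sample was taken to vary like the other groups. The share of all genes called in these fits is not given here. A general loss or gain of calls and one particular to the members therefore cannot be told apart. Beyond the scaling, the cause of these changes was not tested. Groups of 2 and 3 libraries and the weakly expressed forms limit what can be called.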
